A study of Drosophila melanogaster with 6 samples.

Results

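Among the genes of Drosophila melanogaster, those with no known protein product carry a CR number in the fly gene catalogue, and 1399 genes of the authors' deposited table are listed under one. Of these, 52 had an average log2 CPM (reads scaled to a library of 1000000) of 3 or more, which is 8 CPM, in that table of 14862 genes. The 52 genes were chosen by name and by that average alone, so their averages are given as a description with no test. Just inside the limit the authors' deposited table has CR44054, CR44779 and CR44707, at 8.29, 8.48 and 8.64 CPM. Just outside it the authors' deposited table has CR43463, CR34335 and CR44030, at 7.71, 7.60 and 7.39 CPM. All 52 matched an entry of the RefSeq gene table of Release 6. It classes 37 as long noncoding RNAs, 9 as antisense RNAs, 4 as ribosomal RNA pseudogenes and 2 as noncoding RNAs with no further class. These last 2 are hairpin RNAs by their names.

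Embryos whose mothers carried InR-DN, a dominant-negative form of the insulin receptor, in their oocytes were compared with embryos from oocytes with green fluorescent protein (GFP control). Both groups have 3 samples, and a sample is RNA of 200 embryos aged 16 to 20 h from flies on standard food with yeast paste. Driver, strain and further genotype are not in the labels, nor is it said if the samples are separate crosses, so p-values may measure technical spread only. The deposited file holds 1 fold change per gene and no value per sample, and it does not say which group is the numerator. Genes are therefore placed on its positive or negative side, and none is called higher in either group.

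Depth was computed from genes with 1 read, whose averages take 12 levels. The authors' fit therefore held 12 libraries: 3 on each side of the fold change and 6 with no part in it. In units of 1000000 reads the compared libraries were between 23.4 and 40.5 in effective size. A gene with no read in them could reach 0.0160 CPM, the level of 3 reads, which covers counting error only. The average is over all 12 libraries, so a gene above 8 CPM on average may be nearly absent from the compared ones. Of 6 cuticle genes that mark late embryos, 4 were found, and TwdlM and Osi7 had no read in the compared libraries. Cpr49Ac and Cpr76Bd reached at most 0.252 and 0.392 CPM there, with approximate minima of 4.35 and 34.6 reads. For the ovary and egg genes nos, osk, bcd, Yp1, Cp36 and Vm26Aa the authors' deposited table has averages from 73.0 to 3544 CPM. Over the compared libraries their approximate minimum was 22.6 reads for Cp36 and more for the others, and they reached at most 135 to 6562 CPM. All 4 muscle and all 4 neuron genes on the list had reads there, though most could reach only low levels. Mhc, Act57B, Mlc2 and wupA reached at most 5.90, 50.3, 4.54 and 3.08 CPM. The neuron genes elav, nSyb, Syt1 and brp reached at most 242, 0.786, 0.309 and 1.06 CPM. Approximate minima were 104 or more for each of Mhc, Act57B, Mlc2 and wupA, 78.0 for elav, 48.5 for brp, 12.4 for nSyb and 8.05 for Syt1. Such a minimum can be too high where reads are few: for CR45138, described below, it was 10.5, and 8 reads were found. The midgut genes Jon25Bi, betaTry and Amy-p had log2 fold changes of 8.43 ± 0.36, 6.49 ± 0.33 and 2.85 ± 0.30 by the authors' deposited table, where ± is an implied standard error (SE). Of the fat body genes, the authors' deposited table has Lsp2 at 3.73 ± 0.39, Fbp1 at 1.70 ± 1.21 and Adh at -0.14 ± 0.22. The part of these markers in the values of the CR genes was not tested.

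Long noncoding RNAs are transcripts without a long open reading frame, many of them spliced and polyadenylated like messengers. Some act on chromatin or on neighbouring genes, some host small nucleolar RNAs, which guide chemical changes of ribosomal RNA, and for most no function is known. In flies the best known are the roX RNAs of the dosage compensation complex, which acts on the male X chromosome, and Hsromega, a nuclear RNA of the heat shock response.

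Most of the 52 genes lay near a log2 fold change of 0. Their median in the authors' deposited table was 0.08, with quartiles of -0.04 and 0.31, beside a median of 0.02 over all 7102 genes of 8 CPM or more and of 0 over all genes. Of the 52, 33 were positive, 16 negative and 3 at 0, and 39 (75.0%) were within 0.5 of 0 on the log2 scale, beside 93.9% of all genes of 8 CPM or more. The 3 at 0 had no read in the compared libraries and are counted in the 39, though no change could be measured for them. Such genes were 0.324% of all genes of 8 CPM or more. At an adjusted p under 0.05 (edgeR likelihood ratio test, Benjamini-Hochberg), 4 of the 52 were called in the authors' deposited table (7.69%), 2 on each side. The background in the authors' deposited table was 2.03% called among all genes of 8 CPM or more, of which 1.27% positive and 0.760% negative, and 4.49% over all genes. For CR genes below 8 CPM it was 2.00%. The share called varies with level, and the 52 genes had a median of 16.6 CPM, beside 59.5 CPM for all genes at or above the limit. At a log2 average of 3 to 4, by the authors' deposited table, 1 of 24 CR genes (4.17%) and 8.09% of other genes were called. From 4 to 6 it was 3 of 17 (17.6%) and 1.89%, and at 6 or more 0 of 11 and 0.836%, by the authors' deposited table. At an unadjusted p under 0.05 (edgeR) there were 7 of 52 (13.5%), beside 4.86% of all genes at that level. A deposited fold of 2 or more was found for 5 of 52 (9.62%), beside 2.63% of all genes at that level. Of these 5, CR45138, CR43432 and CR43887 had 8, 5 and 3 reads in the compared libraries, too few to measure the size of a change. The count of 4 called genes is small, 1 of these calls rests on 8 reads, and no test of the list is given. An implied SE is the size of a log2 fold change divided by the root of its likelihood ratio statistic.

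**Figure D1:**
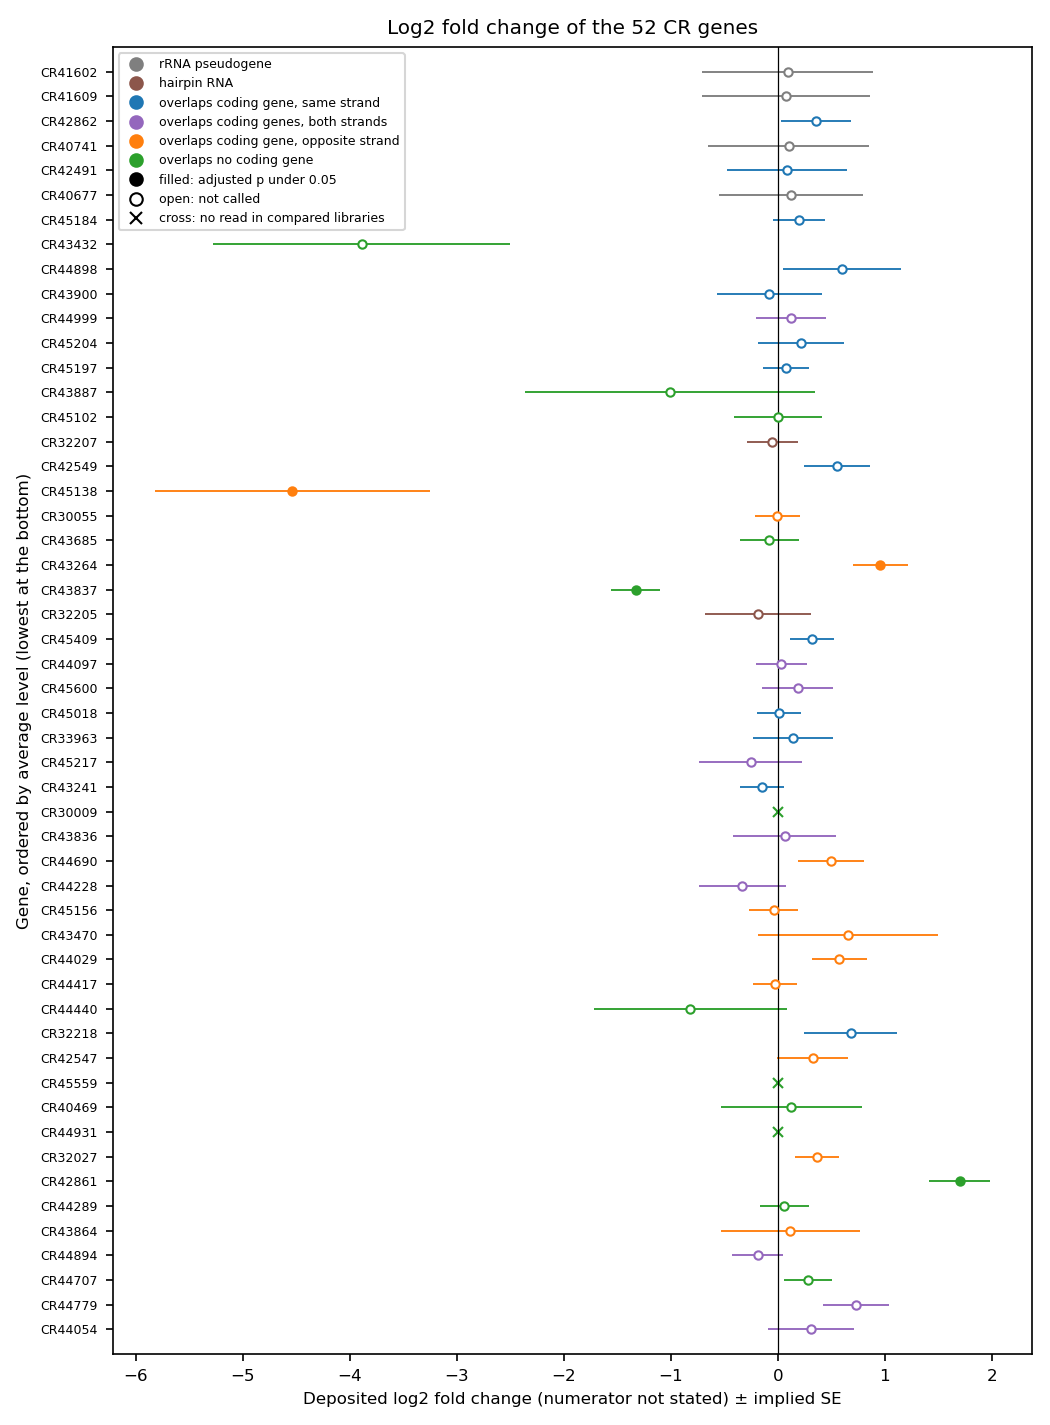
Deposited log2 fold change (x axis, numerator not stated) of each of the 52 CR genes (y axis, ordered by average level), with bars of 1 implied SE and colours for the kind of gene; filled points have an adjusted p under 0.05. Of the 4 filled points, CR42861 and CR43264 lie to the right of 0 and CR43837 and CR45138 to the left, and 3 crosses mark genes with no read in the compared libraries.

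CR42861, an RNA of 549 bases with 1 exon on the X chromosome, had the most positive value. For CR42861 the authors' deposited table gives a log2 fold change of 1.70 ± 0.28, or 3.25-fold, at 9.22 CPM on average and an adjusted p of 1.92e-07 (edgeR). Its approximate minimum in the compared libraries was 131 reads. It lies between Grip91, which encodes a subunit of the gamma-tubulin complex, and Pdcd4, both on the opposite strand. Neither neighbour was called, and the authors' deposited table has Grip91 at -0.19 ± 0.20 and Pdcd4 at 0.13 ± 0.31 on the log2 scale.

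CR43837, a spliced RNA also on the X chromosome, was the negative-side call with many reads. For CR43837 the authors' deposited table gives a log2 value of -1.33 ± 0.23, or 2.51-fold, at 19.6 CPM and an adjusted p of 6.05e-07 (edgeR). Its approximate minimum in the compared libraries was 166 reads. It lies between Inx7 and Inx2, which encode innexins, the gap junction proteins of insects. Neither was called, and the authors' deposited table has Inx7 at -0.02 ± 0.30 and Inx2 at 0.14 ± 0.25.

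CR43264, an RNA of 318 bases with 1 exon, was the other call on the positive side. For CR43264 the authors' deposited table gives 0.96 ± 0.26, or 1.95-fold, at 21.9 CPM and an adjusted p of 0.00599 (edgeR). Its approximate minimum in the compared libraries was 141 reads. It lies inside CG15765 on the opposite strand, and CG15765 had no read in the compared libraries. Its neighbour on the same strand, CG15766 (AgmNAT, an agmatine acetyltransferase gene), was called on the same side, and the authors' deposited table has it at 1.45 ± 0.31 with 1.12 CPM. The neighbour GAA1, a gene of lipid anchor attachment, was not called and stands at 0.13 ± 0.19 in the authors' deposited table.

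CR45138, the remaining call, rested on few reads. For CR45138 the authors' deposited table gives -4.54 ± 1.29 at 36.5 CPM on average and an adjusted p of 0.0124 (edgeR). A search for whole reads per library that give this fold change and statistic found 1 solution. It has 0, 0 and 0 reads in the positive-side libraries and 5, 0 and 3 in the negative-side ones, ordered by size. The sides overlap, as 1 negative-side library has no read either. Set against 3 reads over the whole positive side, the 8 reads of the negative side gave 3.28-fold, which leaves out their own counting error. The deposited fold change itself depends on a prior count. These 8 reads are 0.0631% of the reads of CR45138 in the fit. The gene lies inside cbx, which is on the opposite strand, was not called and has 0.01 ± 0.26 in the authors' deposited table. Its neighbour CG18446 (Lime) was called on the positive side, with 1.00 ± 0.18 at 124 CPM in the authors' deposited table.

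CR43432, named lncRNA:marge in the reference, had a high average and few reads. It stands at 150 CPM in the authors' deposited table, but the compared libraries held 0, 0 and 0 reads for the positive side and 2, 1 and 2 for the negative one. These 5 reads are 0.00961% of its reads in the fit. The sides do not overlap. Set against 3 reads over the positive side, the 5 reads gave 2.05-fold, which leaves out their own counting error. For CR43432 the authors' deposited table gives -3.89 ± 1.39 and an adjusted p of 0.0966 (edgeR), so it was not called, and this fold change also depends on a prior count. Its neighbour Ocho, of the Bearded family of Notch pathway inhibitors, was not called, with -0.78 ± 1.18 at 298 CPM in the authors' deposited table.

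The reads of 3 more genes could be solved, and none of these genes was called. CR43887, with 48.9 CPM in the authors' deposited table, had 0, 0 and 1 positive-side reads and 0, 1 and 1 negative-side reads, too few for a fold. CR44440 lies between PlexB and ci, the transcription factor gene of the Hedgehog pathway, and had 2, 0 and 2 reads against 3, 2 and 1, which overlap. CR43470, an antisense RNA of CG14830, had 2, 3 and 3 reads against 1, 1 and 2, which share the value 2. CG14830 itself was called, with 0.94 ± 0.25 and an adjusted p of 0.00660 (edgeR) in the authors' deposited table. Whether strand was used in the counting is not stated, so reads of an antisense pair cannot be told apart with certainty.

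**Figure D2:**
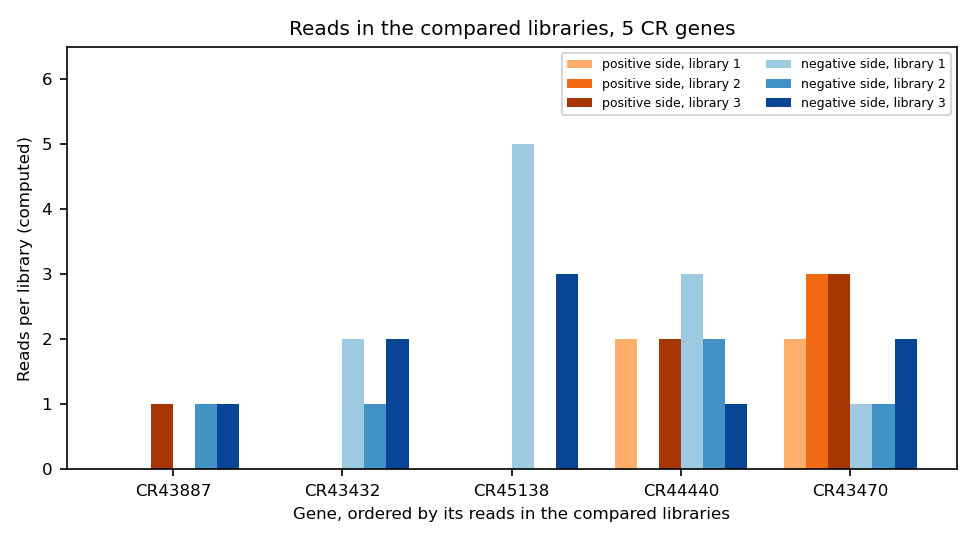
Reads computed for each compared library (y axis) of 5 CR genes (x axis, ordered by their reads); orange bars are positive-side and blue bars negative-side libraries, numbered from the smallest to the largest. CR43432 and CR45138 have reads on the negative side alone, 5 and 8 in all.

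CR30009, CR45559 and CR44931 had no read in any compared library. Their averages in the authors' deposited table were 14.4, 9.49 and 9.25 CPM, and all of these reads came from the libraries with no part in the fold change. CR44931 and CR45559 are neighbours beside ftz, a pair-rule gene that acts in segmentation. ftz, at 7.67 CPM in the authors' deposited table, and the next noncoding gene, CR44932, had no read in the compared libraries either. Among all genes of 8 CPM or more, 23 of 7102 (0.324%) had no read there, and 3 of the 52 CR genes (5.77%). In all, 8 of the 52 had 12 reads or fewer by these counts.

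Pseudogenes of ribosomal RNA, 4 in number, were among the most abundant of the 52. They are incomplete copies of the ribosomal RNA genes, and reads may be shared with the intact genes, so their levels are uncertain. The authors' deposited table has CR41602, from the 18S RNA, at 45408 CPM, CR41609 and CR40741, from the 28S RNA, at 6221 and 897, and CR40677, from the 2S RNA, at 367. The authors' deposited table puts their log2 fold changes between 0.08 and 0.13. Of the 4, 0 were called, beside 2.03% of all genes of 8 CPM or more. Their SEs were wide, from 0.67 to 0.80. Among genes within 0.5 log2 of its average, CR40677 had an SE above 99.1% of them, and CR40741 above 97.0%.

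The hairpin RNAs CR32207 and CR32205 fold into long double strands, of the kind that Dicer-2 cuts into small interfering RNAs in flies. For CR32207 the authors' deposited table gives -0.05 ± 0.24 at 41.8 CPM. For CR32205 the authors' deposited table gives -0.18 ± 0.49 at 19.6 CPM. Neither was called.

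Overlap with a coding gene on the same strand alone was found for 13 genes, of which 0 were called and 0 had an unadjusted p under 0.05 (edgeR). Among all genes of 8 CPM or more these shares were 2.03% and 4.86%, so nothing is read from 0 of 13. Positive values were found for 11 and negative ones for 2, beside 4023 positive and 3056 negative among those 7102 genes. For the 13 the authors' deposited table has a median of 0.20 and a range of -0.15 to 0.68. CR42862, which overlaps CG33229, was the most abundant of them, and the authors' deposited table has it at 0.36 ± 0.33 and 1262 CPM, with CG33229 at 0.29 ± 0.27. CR42491 lies in RpL22, a gene of the large ribosomal subunit, and holds 1 small nucleolar RNA gene. The authors' deposited table has CR42491 at 0.08 ± 0.56 and 798 CPM, with RpL22 at 0.05 ± 0.50. The small nucleolar RNA gene beside it, snoRNA:Psi28S-2179, was called, with 1.14 ± 0.37 and an adjusted p of 0.0486 (edgeR) at 1.06 CPM in the authors' deposited table. CR45184 holds 5 small nucleolar RNA genes and shares 94.7% of its exon bases with CG13900. It stands at 0.20 ± 0.24 and 306 CPM, and CG13900 at 0.23 ± 0.27, in the authors' deposited table.

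Several hosts of this kind are well known genes. CR45204 lies in Imp, which encodes an RNA-binding protein, and has 0.22 ± 0.40 beside 0.08 ± 0.36 for Imp in the authors' deposited table. CR45197 lies in sgg, the GSK3 kinase gene of insulin and Wnt signalling, and has 0.08 ± 0.22 beside 0.07 ± 0.23 for sgg in the authors' deposited table. All exon bases of these RNAs also belong to their host, so their reads may be shared. CR43900 lies in the calmodulin gene Cam, and the authors' deposited table has -0.08 ± 0.49 for it and -0.03 ± 0.27 for Cam. CR33963 lies in Tis11, which encodes a factor of messenger decay, and the authors' deposited table has 0.14 ± 0.37 for it and 0.09 ± 0.28 for Tis11. CR43241 lies in CG42748, and the authors' deposited table has -0.15 ± 0.21 for it and 0.00 ± 0.20 for CG42748. CR45018, in the inositol phosphate kinase gene IP3K2, has 0.01 ± 0.21, and IP3K2 0.01 ± 0.21, in the authors' deposited table. In these 6 pairs the values differed by less than the SE of the RNA.

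Wider gaps to the host were found for other genes. CR44898 shares 99.8% of its exon bases with lea, an axon guidance receptor gene, and the authors' deposited table has 0.60 ± 0.55 for it and 0.02 ± 0.36 for lea. CR32218 lies in the chromatin remodeller gene Mi-2 and in the elongation factor gene Su(Tpl). The authors' deposited table has 0.68 ± 0.43 for CR32218, 0.16 ± 0.27 for Mi-2 and 0.20 ± 0.22 for Su(Tpl). CR42549 lies in mura, and the authors' deposited table has 0.55 ± 0.30 for it and 0.13 ± 0.19 for mura. CR45409 overlaps CG7185, and the authors' deposited table has 0.32 ± 0.20 for it and 0.04 ± 0.21 for CG7185. The gap between an RNA and its host was not tested, since there are no values per sample.

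Overlap with the opposite strand alone was found for 11 genes, with CR43264 and CR45138 as the called ones. The share called among all genes of 8 CPM or more was 2.03%, and nothing is read from so small a count. CR44029 lies in unc-13, a gene of synaptic vesicle priming, and had 0.57 ± 0.26, with an unadjusted p of 0.0250 and an adjusted p of 0.316 (edgeR), in the authors' deposited table. The authors' deposited table has -0.12 ± 0.32 for unc-13. CR44690 is antisense to the cytochrome P450 genes Cyp4d2 and Cyp4ae1, and the authors' deposited table has 0.49 ± 0.31 for it, 0.10 ± 0.43 for Cyp4d2 and -0.23 ± 0.27 for Cyp4ae1. CR32027 lies in the citrate transporter gene Indy, and the authors' deposited table has 0.37 ± 0.21 for it and -0.08 ± 0.22 for Indy. CR30055, in the corepressor gene Sin3A, has 0.00 ± 0.21, and Sin3A 0.14 ± 0.25, in the authors' deposited table. CR44417, in Mapmodulin, has -0.03 ± 0.20, and Mapmodulin -0.08 ± 0.35, in the authors' deposited table. For the rest, CR45156, CR42547 and CR43864, the authors' deposited table has -0.04 ± 0.23, 0.33 ± 0.33 and 0.12 ± 0.65.

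A further 9 genes overlap coding genes on both strands. Of these, 0 were called (edgeR), beside 2.03% of all genes of 8 CPM or more. CR44999 shares 91.8% of its exon bases with dm, the fly Myc gene, and the authors' deposited table has 0.12 ± 0.33 for it and 0.07 ± 0.23 for dm. CR44779 had the largest value of the 9, 0.73 ± 0.31, with an unadjusted p of 0.0169 and an adjusted p of 0.239 (edgeR), in the authors' deposited table. CR44097 lies in CG6000 and shares 2.33% of its exon bases with the heat shock gene Hsp68 on the other strand. Hsp68 was called on the negative side at -0.90 ± 0.29, while CR44097 has 0.03 ± 0.24 in the authors' deposited table. CR45600 overlaps CG3984 and CG3987 on the other strand, and CG3987 was called at -1.51 ± 0.31, while CR45600 has 0.19 ± 0.33 in the authors' deposited table. For the other 5, CR45217, CR43836, CR44228, CR44894 and CR44054, the authors' deposited table has -0.25 ± 0.48, 0.07 ± 0.48, -0.33 ± 0.41, -0.19 ± 0.24 and 0.31 ± 0.40.

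CR genes were set beside coding genes in pairs, where the CR gene lies inside the coding gene or shares at least 10% of its exon bases with it. On the same strand there were 17 pairs of 16 CR genes, with 0 called partners, and 15 pairs were within 0.5 log2. On the opposite strand there were 19 pairs of 15 CR genes, with 1 called partner (CG14830), and 12 pairs were within 0.5 log2. The median difference, CR gene minus partner, was 0.02 on the same and -0.13 on the opposite strand. The ranges were -0.33 to 0.59 and -4.55 to 1.12. The value of -4.55 is CR45138 with cbx and rests on 8 reads. The pair of CR43264 and CG15765 gives no difference between 2 measured values, as CG15765 had no read. The strands were not tested against each other, and some CR genes are in several pairs.

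**Figure D3:**
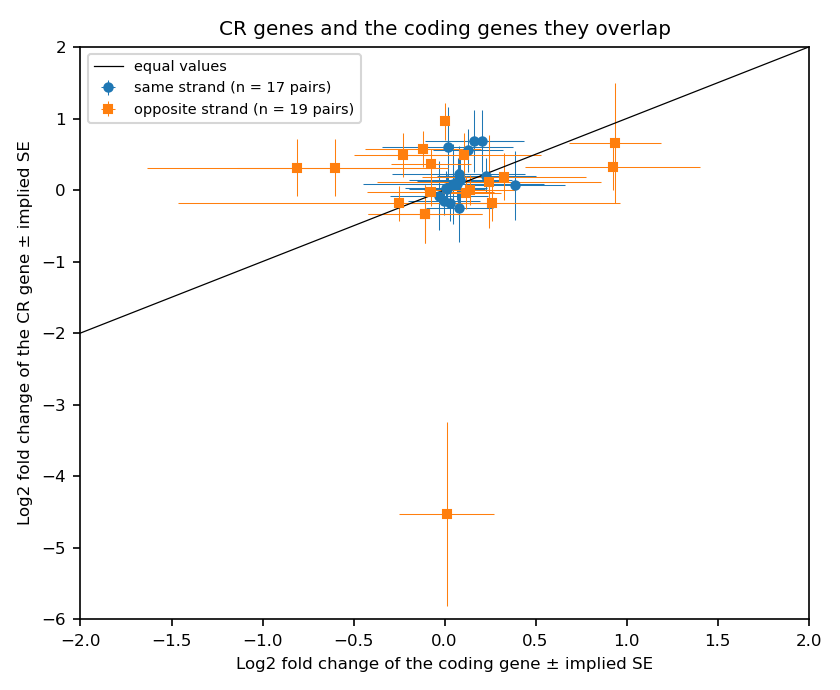
Log2 fold change of CR genes (y axis) against that of coding genes they overlap (x axis), with bars of 1 implied SE; blue circles are the 17 pairs on the same strand, orange squares the 19 pairs on opposite strands, the line marks equal values, and CG15765, with no read, has no bar of its own. The point far below the line is CR45138 with cbx.

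Flanking genes were called in 8 of 103 pairs of a CR gene and its nearest neighbour on either side (7.77%), beside 4.49% of all genes. Among genes without a CR number the share called ran from 0.836% to 17.7% by level, the highest at a log2 average of 0 to 1, so nothing is read from this count. Besides CG15766, CG18446 and snoRNA:Psi28S-2179, given above, these neighbours were chosen after their values were seen. For CR45184 the neighbour CR43883 has -1.97 ± 0.38, and for CR43887 the neighbour CG11652 (Dph1) has -0.98 ± 0.30 in the authors' deposited table. For CR44029 the neighbour mGluR, a glutamate receptor gene, has -1.75 ± 0.35, and for CR43470 the neighbour unc-13-4A has 1.77 ± 0.47 in the authors' deposited table. For CR43836 the neighbour CG43255 was called on the negative side with 0.148 CPM as its average in the authors' deposited table. Of the CR genes beside these 8, CR43264 and CR45138 were called themselves.

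No coding gene overlaps the last 13 of the 52. CR42861 and CR43837 were called, beside 2.03% of all genes of 8 CPM or more, and nothing is read from so small a count. CR43432, CR43887, CR44440, CR30009, CR45559 and CR44931 had few or no reads. For CR44707, CR40469 and CR44289 the authors' deposited table has 0.28 ± 0.22, 0.13 ± 0.66 and 0.06 ± 0.23. For CR45102 and CR43685 the authors' deposited table has 0.01 ± 0.41 and -0.08 ± 0.28, and none of these 5 was called.

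SEs were wider among the 52 than among all genes of 8 CPM or more. The median was 0.33 over the 49 CR genes with an SE, and 0.23 over all genes at that level. An SE above 0.5 was found for 13 of the 49 (26.5%) and for 4.21% of all genes at that level. Set beside genes within 0.5 log2 of the same average, 17 CR genes had an SE above 90% of them and 14 had one below their median. The SE of CR44417 was above 2.56% of such genes, and that of CR43432 above 99.6%. No test was made of these shares. Few reads and spread between libraries both widen an SE, and for genes of more than 16 reads they cannot be told apart here. CR43432 and CR45138 had no read on the positive side. Their SEs therefore depend on the prior count of the fold change and do not measure spread.

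**Figure D4:**
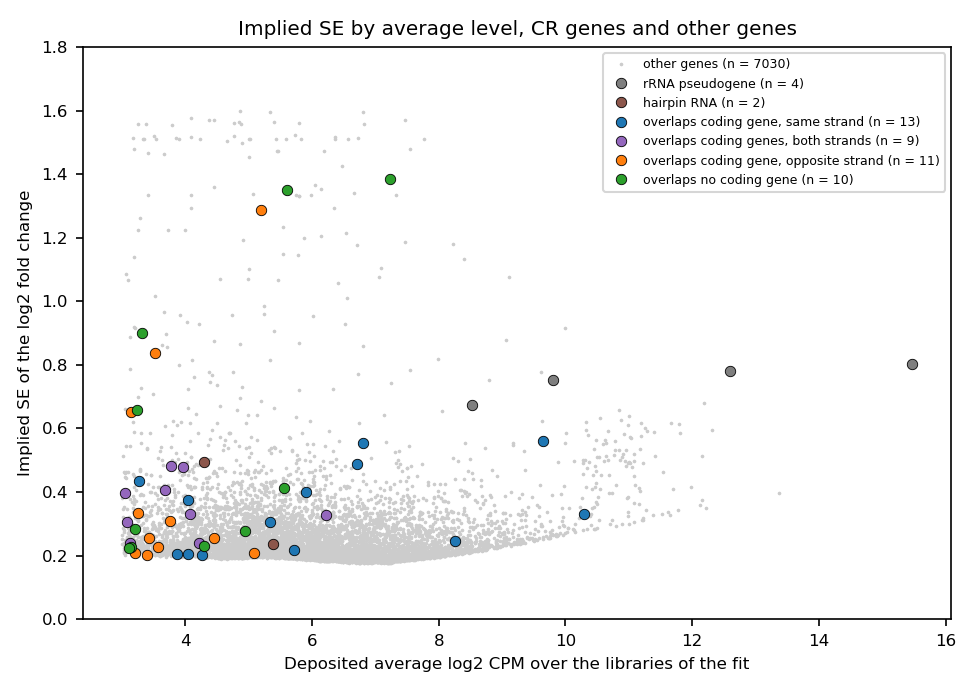
Implied SE of the log2 fold change (y axis) against deposited average log2 CPM (x axis) for the 49 CR genes with an SE, coloured by kind, and for 7030 other genes of 8 CPM or more in grey. CR43432, CR43887 and CR45138 have the highest SEs of the 49, and the 4 ribosomal RNA pseudogenes lie between 0.67 and 0.80.

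Levels were compared between genes per kilobase of exon in the Ensembl annotation, which may differ from that of the authors. On this scale CR41602 led with 22991 CPM per kilobase, ahead of CR40677 with 12248, CR41609 with 6950, CR42491 with 1068 and CR40741 with 713. CR40677 has only 30 annotated exon bases, so its place rests on that short length. Next were CR42862 with 230, CR43432 with 149, CR43900 with 142, CR45184 with 116 and CR43887 with 92.7 CPM per kilobase. CR44779 was the lowest with 1.30 CPM per kilobase. These averages are over the whole fit, and as the file holds no value per sample the order of neighbours in it was not tested. A single exon is annotated for 22 of the 52 genes, and 30 have more.

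The X chromosome held 22 of the 52 genes (42.3%), the 4 ribosomal RNA pseudogenes among them. It held 17.3% of the other genes of 8 CPM or more and 16.0% of the CR genes below that level. Chromosome arm 2L held 2 of the 52 (3.85%), beside 26.0% of the CR genes below the level. Of the called genes, CR42861, CR43264 and CR43837 are on the X and CR45138 is on 2R. These shares are a description, and no test was made of them.

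**Figure D5:**
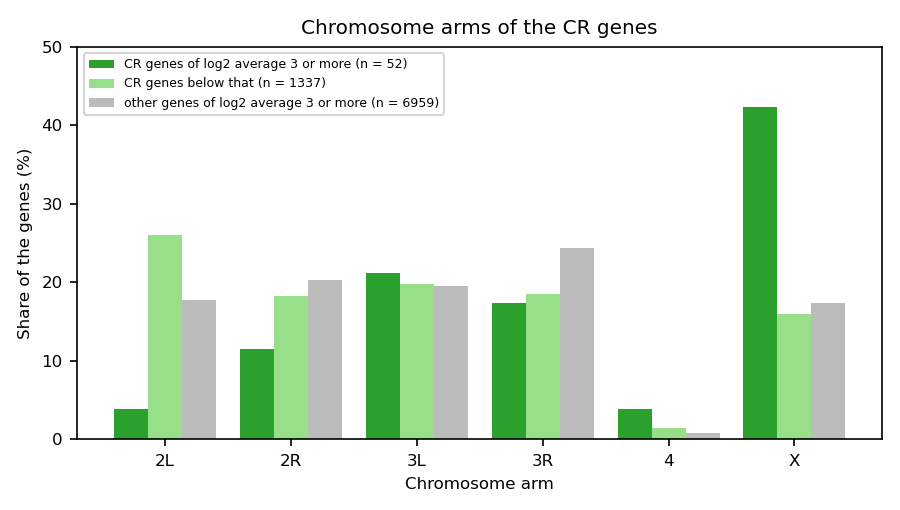
Share of genes (y axis, percent) on each chromosome arm (x axis) for the 52 CR genes, for 1337 CR genes of lower average and for 6959 other genes of 8 CPM or more that matched the RefSeq table. The X bar of the 52 genes is at 42.3%, beside 16.0% and 17.3% for the other sets.

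A list of 41 genes with other names, drawn up as noncoding RNA genes, was looked up, and 33 were found. Of the 33, 0 were called in the authors' deposited table (edgeR), beside 4.49% of all genes. Of the 33, 13 had a log2 average of 3 or more. Their median log2 fold change, over all 33, was 0.24, beside 0 over all genes. Genes with no read in the compared libraries count as 0 in it. The entries 7SLRNA:CR32864 and 7SLRNA:CR42652 have equal values, and both are counted. An unadjusted p under 0.05 (edgeR) was reached by 1 gene. That gene was Uhg1, a host of small nucleolar RNAs, for which the authors' deposited table gives 0.49 ± 0.20 at 66.5 CPM and an adjusted p of 0.206 (edgeR). For roX1 the authors' deposited table gives 0.48 ± 0.29 at 637 CPM, and for Hsromega 0.06 ± 0.22 at 156 CPM. For pgc, a germ plasm gene on that list that encodes a small protein, the authors' deposited table gives -0.01 ± 0.20 at 185 CPM. roX2 and bxd, an RNA of the bithorax Hox cluster, had no read in the compared libraries, at 4.25 and 5.40 CPM on average in the authors' deposited table.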

How the data were processed

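RNA of 6 samples was taken up in TriPure and made into libraries with a stranded total RNA kit, per the labels' protocols, whereas the descriptions mention polyA selection. FastQC, Bowtie and TopHat are named in the submitters' processing notes; their versions, the counter, the genome build, the strand setting and the filters are not stated, and no coordinates are printed. The file is the authors' deposited result of edgeR's glmLRT, per the file headers: log2 fold change, average log2 CPM, likelihood ratio score with 1 degree of freedom, p-value and adjusted p-value. With no value per sample the deposited test was used as it stands, at a threshold of 0.05, and 0 columns belong to other samples.

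Computed here were the SE, and library sizes from genes with 1 read (prior count 2; 76 of 78 levels predicted for 2 reads were found within 1e-05). The lowest number of reads is that at which counting noise alone gives the deposited statistic. For each of the 5 genes whose reads could be solved it was above those reads, so it is approximate where reads are few. Reads per library, up to 16 in all, were those that give the deposited fold change within 5e-08 and the statistic at 1 dispersion, with a default prior count of 0.125. On simulated data the search found 54 of 55 compositions, and among genes of 2 reads in the deposited file 20 of 20. Of 8 of the 52 genes searched, 5 had 1 solution and 3 (CR41602, CR41609 and CR40741) had none. Overlaps were read from the Ensembl annotation and names from RefSeq Release 6, with Python 3.11.15, pandas 2.3.3 and scipy 1.17.1.

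Genes named by rule were each called gene with the gene it overlaps or its neighbours, the 10 highest averages, the 10 smallest p-values, the 5 most positive and 5 most negative changes, and 3 genes on each side of the limit. The rest of the 52 and their hosts were added to account for all. Members, lists and rule were chosen with earlier results of these data known. Alternatives were another p threshold, a 2-fold minimum, other levels, adjustment over fewer genes, and leaving out pseudogenes, shared values or genes of few reads.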

Additional observations from a re-analysis of the deposited data

Results flagged for a closer look

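A signal outside the compared libraries alone was found for 3 of the 52 genes. In the authors' deposited table CR30009 averaged 14.4 CPM, CR45559 9.49 CPM and CR44931 9.25 CPM over the 12 libraries, above the 0.0160 CPM that 3 reads would give, with no read in the compared libraries. CR43432, CR43887, CR45138, CR44440 and CR43470 had most of their reads outside as well. The compared libraries held 0.00961%, 0.0177%, 0.0631%, 0.289% and 0.302% of their reads in the fit. Which samples the other 6 libraries are is not stated.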

How the results depend on the processing

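The count of 4 called genes was 3 at an adjusted p under 0.01, with a 2-fold minimum, at a log2 average of 4 or more (of 28), and without the genes of 12 reads or fewer (of 44), the last chosen after seeing the data. It was 4 with p adjusted over the 7102 genes of 8 CPM or more, without pseudogenes (of 48), and without genes that share values with another, of which there were 0. At a log2 average of 2 or more it was 7 of 83 genes, as more genes enter. The median log2 fold change of 0.08 was between 0.06 and 0.11 under its 6 alternatives, 2 of them chosen after seeing the data. No paired analysis was possible because the file holds no value per sample; for that reason leaving out replicates, another normalization, another count tool and other filters were not run. Depth limits the genes of 12 reads or fewer, whose deposited fold changes do not measure size.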

Other observations

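CR genes below 8 CPM were called in 27 of 1347 cases, 18 positive and 9 negative, in the authors' deposited table. Below a log2 average of -2, 5 of 959 CR genes (0.521%) and 2.92% of other genes were called, and between -2 and 0 it was 10 of 234 (4.27%) and 12.6%, by the authors' deposited table. From 0 to 1 it was 5 of 65 (7.69%) and 17.7%, from 1 to 2 it was 4 of 58 (6.90%) and 13.2%, and from 2 to 3 it was 3 of 31 (9.68%) and 9.11%, by the authors' deposited table. CR43463, just outside the limit, was among those called, and the authors' deposited table has it at 1.05 ± 0.24 with an adjusted p of 5.32e-04 (edgeR).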
